A study of Homo sapiens with 6 samples.

Results

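Long intergenic noncoding RNAs (lincRNAs) are capped, usually polyadenylated transcripts that lie outside protein-coding genes and encode no known protein. In the gene count table, 7629 of 58735 genes carried the biotype lincRNA, and 3573 of them had at least 1 count in any library. The genes described here were those with at least 100 raw counts in each of the 3 control libraries, with the host genes of small nucleolar RNAs left out. The floor was met by 128 lincRNA genes, of which 4 hosts (SNHG4, SNHG8, SNHG15 and EPB41L4A-AS1) were removed, and 124 remained. The members were chosen by their control counts. A floor on one group bears on direction, since it leaves out genes that reach it in the knockdown libraries alone. A floor on the mean of all 6 libraries gave 168 lincRNA genes, of which 44 were higher and 20 lower in knockdown libraries by the test used below. All 124 passed the low-count filter of the test.

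The libraries were 3 of SW480 cells with a stable shRNA knockdown of CNOT7 and 3 of SW480 control cells, with no treatment in either group. SW480 is an established human colorectal cancer cell line. The labels name SW480, whereas the study's text names HCT116 for its RNA sequencing, and the shRNA behind each knockdown library is not given in the sources used here. The labels number the libraries 1 to 3 in each group without saying that they came from separate cultures, so the p-values measure the spread between these libraries, which may be technical.

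CNOT7 is a deadenylase subunit of the CCR4-NOT complex, which shortens the poly(A) tails of RNAs and so starts their decay in the cytoplasm. Proteins bound to a transcript, such as the microRNA-loaded Argonaute complex, recruit CCR4-NOT to it. Well-studied lincRNAs include MALAT1 in nuclear speckles, NEAT1 as the scaffold of paraspeckles, NORAD as an abundant cytoplasmic RNA, and the primary transcripts from which several microRNAs are cut.

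The libraries held 23788451 to 25982493 counts in control cells and 27523812 to 29104872 in knockdown cells. CNOT7 itself was at 169, 191 and 176 TMM-normalized CPM (counts scaled to a common library size) in control and at 43.4, 47.2 and 38.6 CPM in knockdown libraries, or 24.1% of control (log2 fold change -2.05, SE 0.073, adjusted p = 2.64e-12 by edgeR's quasi-likelihood test). Of the epithelial markers checked, KRT8, KRT18 and EPCAM were at 2750, 2025 and 212 CPM in control, whereas KRT20 was at 0.053 CPM. In knockdown libraries CDH1 and VIL1 were higher (log2 fold change 0.51 and 0.72, edgeR adjusted p = 0.000155 and 2.93e-05), KRT8 was lower (-0.15, adjusted p = 0.0414), and KRT18, EPCAM and CDX2 were not called. The part of these differences in the results was not tested. The leukocyte, fibroblast and endothelial markers PTPRC, CD3E, COL1A2, DCN and PECAM1 stayed under 0.4 CPM on average in both groups, and VWF was at 1.76 and 2.56 CPM. In bulk RNA, fewer cells of a type and less RNA per cell cannot be told apart.

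In control cells the members took 0.294% to 0.297% of all counts, and 0.322% in each knockdown library. A few genes held most of this RNA. In CPM not corrected for length, NORAD alone made up 26.7% of the members' sum in control, the 3 highest members 41.9% and the 10 highest 56.4%, whereas 69 members lay under 10 CPM and the median was 8.98 CPM. Summed over members, the level was 2996, 3038 and 2999 CPM in control and 3158, 3215 and 3147 CPM in knockdown libraries. The knockdown-to-control ratio of the sums was 1.05, and 1.02 without NORAD. Chromosome 7 held 16 members and chromosome 2 held 15. A span that overlapped no protein-coding gene was found for 94 members, and 29 had an opposite-strand protein-coding gene that started within 1 kb.

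The comparison asked which of these lincRNAs stood at another level once CNOT7 was reduced. Of the 124 members, 25 rose and 20 fell at an adjusted p under 0.05 in the edgeR fit over all 17574 tested genes. Over all tested genes, 25.2% were called, made up of 13.3% higher and 11.9% lower. The same shares of the members were 36.3%, 20.2% and 16.1%. The groups of 3 libraries did not overlap for 63 members (50.8%), against 38.8% of all tested genes. Over the same count floor the share was 43.2% of all genes, 43.5% of protein-coding genes and 45.7% of antisense genes. Every one of the 45 called members was among these 63. The median log2 fold change of the members was 0.04 against 0.00 over all tested genes, and 76 members lay above 0. When the trend of fold change with abundance was removed, 17 members were higher and 21 lower. With no filter on low counts, 19 were higher and 22 lower. Which direction held more calls thus depended on such steps. Without control replicate 1 the count of risen members was 15, and without knockdown replicate 1 the count of fallen members was 13.

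**Figure D1:**
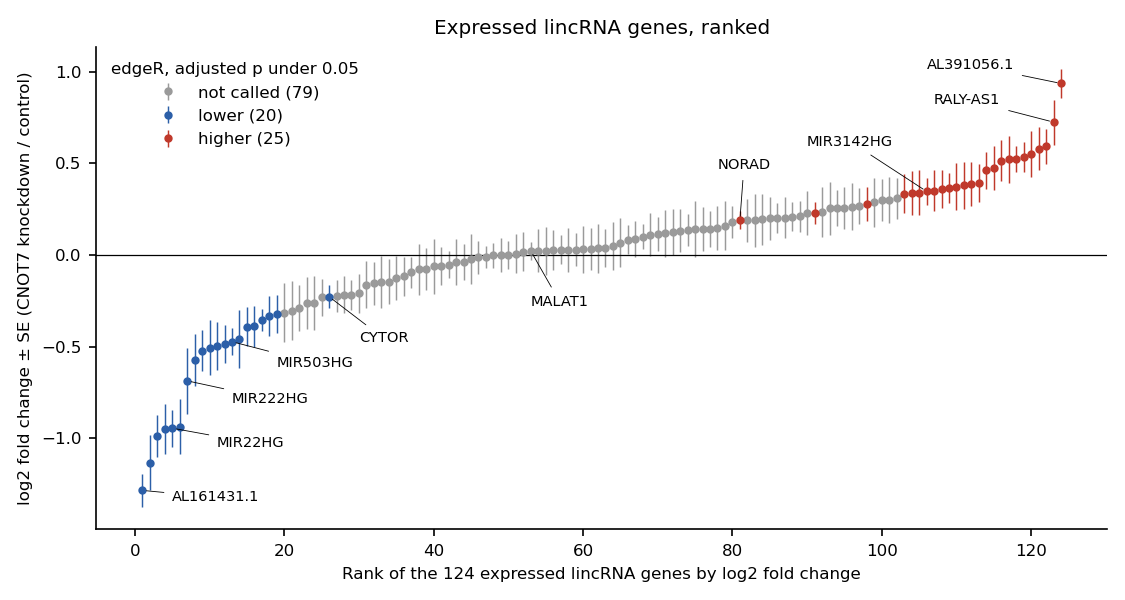
Log2 fold change with its SE for each of the 124 expressed lincRNA genes, ordered from the largest fall to the largest rise; blue points fell, red points rose and grey points were not called by edgeR at an adjusted p under 0.05. The range runs from -1.28 for AL161431.1 to 0.94 for AL391056.1, and MALAT1 sits at 0.02.

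Changes were moderate in size. Only AL161431.1 and AC245041.2 passed an absolute log2 fold change of 1, both downward, while 7 members fell and 3 rose by more than 1.5-fold. Protein-coding genes over the same floor were called in 29.8% of 10881 cases, 12.6% higher and 17.2% lower, with a median log2 fold change of -0.03. Antisense genes over the floor numbered 140, of which 24 rose and 10 fell. In the count range of 100 to under 200 mean control counts, 31.6% of 57 members and 29.5% of 779 protein-coding genes were called, and at 500 counts or more 45.5% of 22 members and 30.4% of 8006 protein-coding genes.

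**Figure D2:**
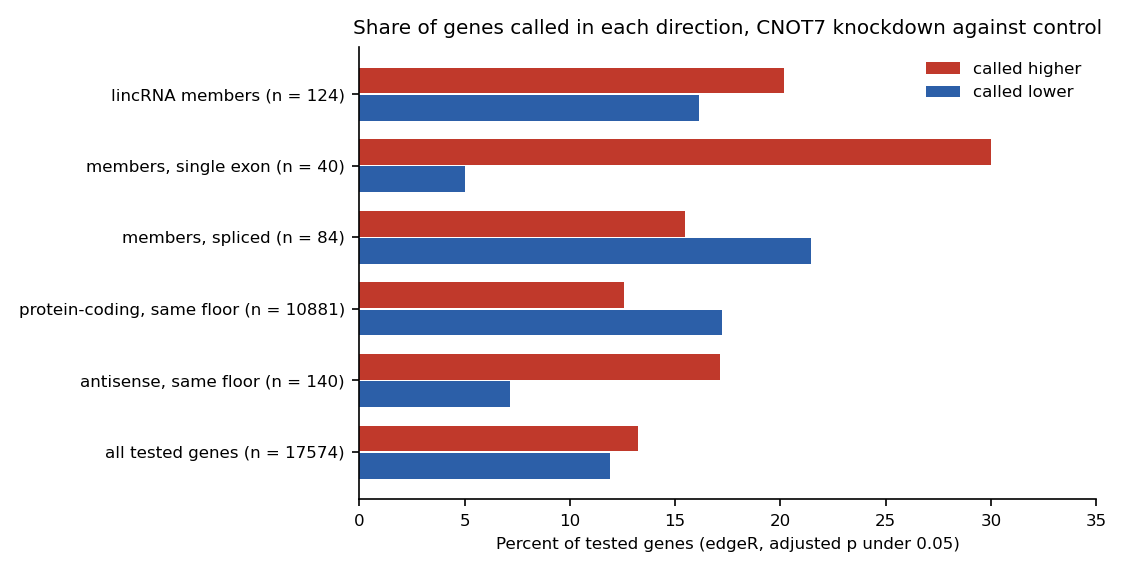
Percent of tested genes called higher (red) and lower (blue) in CNOT7 knockdown against control by edgeR, for the lincRNA members, their single-exon and spliced subsets, and other gene classes, with the number of genes in each class. The single-exon members have 30% higher and 5% lower calls, and the protein-coding genes over the same floor have 12.6% and 17.2%.

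MicroRNA-hosting lincRNAs held several of the largest falls. Mature microRNAs are cut by Drosha and Dicer from such primary transcripts, and a host level does not measure the mature microRNA, which these libraries do not report. Positions were searched for 118 of the 124 members, and 11 of them carried a mature microRNA on their own strand inside their span. The 6 members not searched include PVT1, a known microRNA host, which was not called (log2 fold change -0.22). Of the 11, 8 fell, MIR3142HG rose, and FTX and MUC20-OT1 were not called, with a median log2 fold change of -0.35. Of all tested genes 11.9% were called lower, and of all members 16.1%. Leaving out knockdown replicate 1 lowered the number of fallen hosts to 4, and the median was then -0.38. The hosts are not all independent, since LINC-PINT and AC016831.6 overlap on the same strand and both hold the miR-29b-1 gene, and MIR4435-2HG and CYTOR are copies of one sequence between which reads could be split.

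The mature sequences from these hosts are shown because they name what the changed transcripts carry; they are RefSeq entries on GRCh38.p14, 5′ to 3′, with the seed (bases 2 to 8) in capitals. The hosts that fell carry microRNAs of these seed groups, where miR-221 and miR-222 share one seed, let-7a and let-7b another, and miR-29a and miR-29b a further one.
miR-22-3p (MIR22HG): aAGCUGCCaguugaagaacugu
miR-221-3p (MIR222HG): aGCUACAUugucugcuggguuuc
miR-222-3p (MIR222HG): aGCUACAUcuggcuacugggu
let-7a-5p (MIRLET7BHG): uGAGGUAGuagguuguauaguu
let-7b-5p (MIRLET7BHG): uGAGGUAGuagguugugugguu
miR-503-5p (MIR503HG): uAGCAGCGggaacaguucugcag
miR-29a-3p (AC016831.6): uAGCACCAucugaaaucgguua
miR-29b-3p (LINC-PINT and AC016831.6): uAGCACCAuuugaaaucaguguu
miR-4435 (MIR4435-2HG and CYTOR): aUGGCCAGagcucacacagagg
The host that rose carries miR-146a, a repressor of innate immune signalling, in an exon.
miR-146a-5p (MIR3142HG): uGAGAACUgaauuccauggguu

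MIR22HG (ENSG00000186594, chromosome 17, 1711493 to 1717174, minus strand) holds miR-22 in an exon. Its level was 15.5, 16.3 and 14.3 CPM in control and 7.73, 7.97 and 8.23 CPM in knockdown libraries, 51.9% of control. All 3 knockdown libraries lay far under the lowest control library (log2 fold change -0.94, SE 0.10, adjusted p = 2.66e-06 by edgeR). MIR222HG, which holds miR-221 and miR-222 in an intron, read 4.59, 6.75 and 4.99 CPM in control and 2.87, 4.13 and 3.12 CPM in knockdown libraries. The groups did not overlap, but control replicate 2 and knockdown replicate 2 stood above the others (log2 fold change -0.69, SE 0.18, edgeR adjusted p = 0.00904), and without knockdown replicate 1 the adjusted p was 0.0505.

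MIRLET7BHG is the host of let-7a and let-7b, members of a microRNA family that restrains growth-promoting mRNAs such as those of RAS genes. It stood at 9.30, 6.41 and 7.06 CPM in control and at 5.25, 5.11 and 4.97 CPM in knockdown libraries (log2 fold change -0.57, SE 0.14, edgeR adjusted p = 0.00695). Control replicate 1 was the highest, and without it the log2 fold change was -0.40 and the adjusted p was 0.0611. MIR503HG, which holds miR-503 in an intron, was at 44.7, 41.0 and 42.0 CPM in control and at 31.2, 28.4 and 32.4 CPM in knockdown libraries. The spread within either group was small beside the gap between them (log2 fold change -0.47, SE 0.074, edgeR adjusted p = 0.000145).

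LINC-PINT is a p53-induced transcript, and miR-29b-1 lies in one of its exons. Its values were 9.14, 9.11 and 9.42 CPM in control and 6.99, 6.49 and 7.66 CPM in knockdown libraries (log2 fold change -0.39, SE 0.11, edgeR adjusted p = 0.0169). Without control replicate 3, knockdown replicate 1 or knockdown replicate 2 its adjusted p was 0.0638, 0.0541 or 0.0503. These values are for the lincRNA entry of that name. Another entry named LINC-PINT, of biotype processed transcript and not a member, did not fall. It was at 6.23, 5.03 and 4.51 CPM in control and at 6.21, 6.12 and 6.14 CPM in knockdown libraries (log2 fold change 0.23, SE 0.14, edgeR adjusted p = 0.257). The longer transcript unit AC016831.6, which spans the miR-29a and miR-29b-1 genes in introns, was at 9.34, 9.33 and 8.42 CPM in control and at 7.10, 7.36 and 7.05 CPM in knockdown libraries (log2 fold change -0.33, SE 0.11, edgeR adjusted p = 0.0342). Its call was lost, with an adjusted p of 0.109, 0.0853, 0.0895 or 0.0744, without control replicate 1, control replicate 2, knockdown replicate 1 or knockdown replicate 3. LINC-PINT shares 32% and AC016831.6 40% of exonic bases with other genes, and those reads cannot be assigned to one gene.

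MIR4435-2HG and CYTOR, both found in the cytoplasm, were at 78.2% and 85.4% of control. MIR4435-2HG read 69.3, 73.6 and 69.4 CPM against 56.6, 53 and 56.5 CPM (log2 fold change -0.35, SE 0.062, edgeR adjusted p = 0.000421). CYTOR, named for its effect on the cytoskeleton, read 47.8, 46.5 and 47.6 CPM against 40.0, 41.2 and 40.0 CPM (log2 fold change -0.23, SE 0.064, edgeR adjusted p = 0.0150). The CYTOR call was lost without control replicate 1, control replicate 3 or knockdown replicate 1, with an adjusted p of 0.0556, 0.0680 or 0.0571. MIR3142HG moved the other way, from 27.0, 26.1 and 28.2 CPM in control to 34.1, 36.0 and 33.2 CPM in knockdown libraries (log2 fold change 0.35, SE 0.073, edgeR adjusted p = 0.00202). FTX, a regulator of the X-inactivation centre that carries miR-374b and miR-545 in introns, overlapped between groups, with 35.8, 46.4 and 40.1 CPM against 34.8, 37.3 and 32.6 CPM (log2 fold change -0.22, edgeR adjusted p = 0.0746). It was called lower without control replicate 1 (log2 fold change -0.31, adjusted p = 0.0160) and without knockdown replicate 2 (log2 fold change -0.27, adjusted p = 0.0296).

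**Figure D3:**
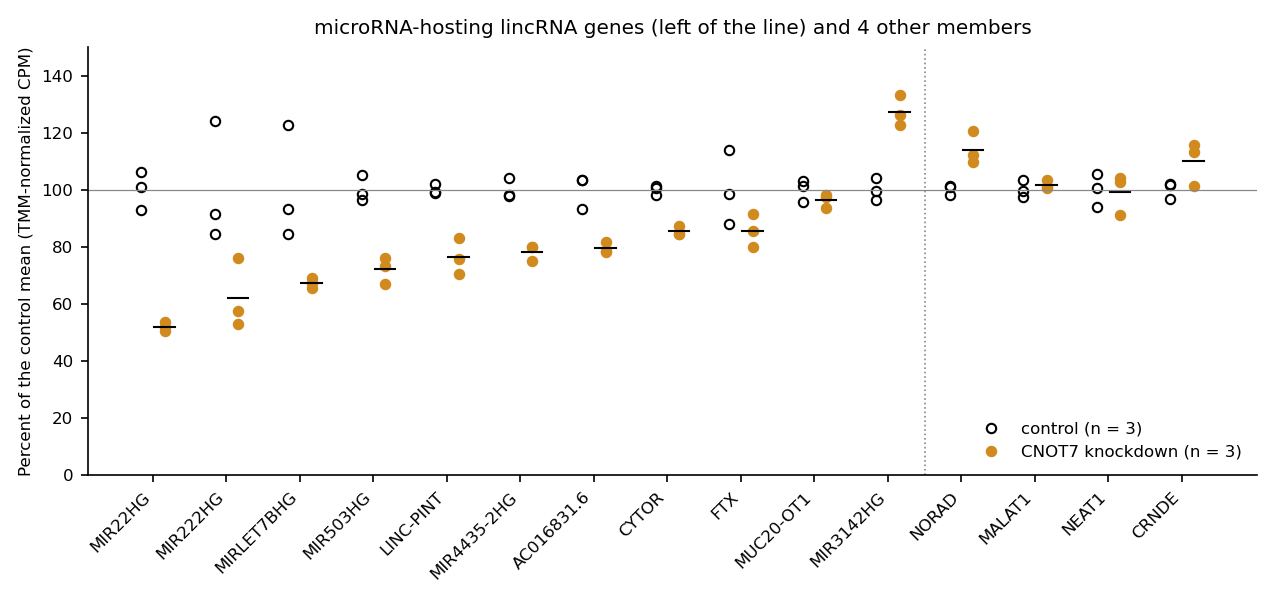
Level in each library as percent of the control mean (TMM-normalized CPM) for the 11 microRNA-hosting members and for NORAD, MALAT1, NEAT1 and CRNDE; open circles are control libraries, filled circles CNOT7 knockdown libraries (n = 3 each), and short lines the knockdown means. MIR22HG is lowest at 51.9% of control, MIR3142HG is at 127% and MALAT1 at 102%.

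NORAD (ENSG00000260032, chromosome 20, 36045622 to 36050960, minus strand) was the member with the highest level per length, at 150 CPM per kilobase of exon in control. It is an unspliced RNA named after its activation by DNA damage. Its level was 788, 812 and 810 CPM in control and 900, 968 and 880 CPM in knockdown libraries. All knockdown libraries lay above all control libraries, with a mean at 114% of control (log2 fold change 0.19, SE 0.049, edgeR adjusted p = 0.00893), and the call held without each library in turn.

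MALAT1 and NEAT1, RNAs that stay in the nucleus, stood near their control level. MALAT1 ends in a triple helix in place of a poly(A) tail, and it was at 228, 237 and 223 CPM in control and at 231, 230 and 237 CPM in knockdown libraries (log2 fold change 0.02, SE 0.051, edgeR adjusted p = 0.794). NEAT1 was at 241, 215 and 230 CPM against 235, 208 and 238 CPM (log2 fold change -0.01, SE 0.062, edgeR adjusted p = 0.929), and its sign changed with the normalization, to 0.03 with upper-quartile factors and 0.05 with the abundance trend removed. Both groups overlapped for either gene. Of the 5 members listed as nuclear body or chromatin RNAs, 0 passed the edgeR test and 0 the DESeq2 test at an adjusted p under 0.05. By edgeR 36.3% of all members and 25.2% of all tested genes were called, so 0 of 5 does not set this list apart. In the list 2 members (FTX and PVT1) had an unadjusted edgeR p under 0.05. Both were called lower with no filter on low counts and with the replicate block, and 1 of them was called lower without control replicate 1, control replicate 2 or knockdown replicate 2. CRNDE, a transcript raised in colorectal tumours, had 16.1, 17 and 16.9 CPM against 16.9, 18.8 and 19.3 CPM (log2 fold change 0.14, edgeR adjusted p = 0.283). PVT1 read 35.4, 30.7 and 30.8 CPM against 30.1, 26.8 and 26.7 CPM, with an adjusted p of 0.0625 and of 0.0434 without control replicate 2.

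The other hand-written lists were short, and of all members 36.3% were called. The list headed cytoplasmic and RNA-binding lincRNAs had 4 members, of which NORAD rose and LINC-PINT, MIR4435-2HG and CYTOR fell. Where in the cell these RNAs lie was not measured, so the heading does not place LINC-PINT in the cytoplasm. Of 5 members linked to p53, hypoxia or stress, NORAD rose, MIR22HG and LINC-PINT fell, and NEAT1 and PVT1 were not called. Of 4 members known from colorectal cancer, CYTOR fell and PVT1, CRNDE and BLACAT1 were not called. BLACAT1 lay at 18.7, 19.2 and 18.4 CPM against 20.5, 22.7 and 21.4 CPM, without overlap, at an edgeR adjusted p of 0.0846 (log2 fold change 0.20, SE 0.082). It lies inside LEMD1 on the same strand, and 11.6% of its exonic bases are shared on that strand. LEMD1 rose (log2 fold change 0.66, edgeR adjusted p = 0.00095). Of 3 members reported to hold small open reading frames, MIR22HG fell, and CRNDE and LINC00467 (log2 fold change 0.26, adjusted p = 0.152) were not called. The lists share members, and they were drawn up with results of these data known.

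AL161431.1 (ENSG00000275216, chromosome 13, 109269634 to 109278512, plus strand) showed the largest fall of all members. It was at 44.1, 53.9 and 47.2 CPM in control and at 19.7, 22.1 and 17.8 CPM in knockdown libraries, 41.1% of control (log2 fold change -1.28, SE 0.092, edgeR adjusted p = 2.22e-08). Its share of the members' summed CPM went from 1.61% to 0.627%. No other tested gene lay within 10 kb of it. It is annotated by position alone, and its longest transcript has a single exon.

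AC245041.2 (ENSG00000276850, chromosome 10, 47908064 to 47991850, minus strand) was at 5.68, 5.93 and 5.31 CPM in control and at 2.34, 2.50 and 2.85 CPM in knockdown libraries (log2 fold change -1.13, SE 0.15, edgeR adjusted p = 2.94e-05). The lincRNA AC245041.1, which overlaps its span on the same strand, also fell, from 3.31, 3.53 and 2.99 CPM to 0.816, 0.870 and 1.24 CPM (log2 fold change -1.74, SE 0.22, edgeR adjusted p = 1.74e-05). AC245041.2 shares no exonic base with another gene, so these are separate counts.

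IGFL2-AS1 (ENSG00000268621, chromosome 19, 46189166 to 46203083, minus strand) is named as antisense to IGFL2, a gene for an insulin growth factor-like protein. It was at 16.4, 16 and 18.5 CPM in control and at 8.13, 10.04 and 7.52 CPM in knockdown libraries (log2 fold change -0.99, SE 0.11, edgeR adjusted p = 6.57e-06). Genes on the opposite strand fell too, of which IGFL1P1 and AC007785.1 overlap its span and AC006262.1 lies 343 bases away. IGFL2-AS1 shares no exonic base with another gene, but the strand setting of the counting is not given in the sources used here. AC007785.1 was low, at 0.70 CPM in control and 0.27 CPM in knockdown libraries on average. The pseudogene IGFL1P1 changed by -1.81, the noncoding AC006262.1 by -1.13 and the lincRNA AC007785.1 by -1.36 on the log2 scale, at adjusted p = 0.000180, 5.97e-05 and 0.0233 by edgeR.

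AC011747.1 on chromosome 2 was at 6.62, 6.71 and 7.34 CPM in control and at 3.58, 3.88 and 3.26 CPM in knockdown libraries (log2 fold change -0.95, SE 0.14, edgeR adjusted p = 6.52e-05). The pseudogene SNRPEP5, within its span on the opposite strand, fell as well, by 1.07 on the log2 scale (edgeR adjusted p = 0.0224). SNRPEP5 was low, at 0.99 CPM in control and 0.47 CPM in knockdown libraries on average, and the strand setting of the counting is unknown. LINC01814, 7989 bases from AC011747.1, was at -0.02. FLJ22447 on chromosome 14 was at 6.11, 5.89 and 5.19 CPM in control and at 2.66, 3.30 and 3.02 CPM in knockdown libraries (log2 fold change -0.94, SE 0.15, edgeR adjusted p = 0.000185). LINC01963 had the tightest control group of these genes, with 9.61, 9.59 and 9.46 CPM, against 6.14, 6.45 and 7.35 CPM (log2 fold change -0.52, SE 0.11, edgeR adjusted p = 0.00263).

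OLMALINC, named for a role in oligodendrocyte maturation, fell together with a lipid gene nearby. It was at 14.2, 14.7 and 13.2 CPM in control and at 10.4, 8.88 and 10.7 CPM in knockdown libraries (log2 fold change -0.49, SE 0.10, edgeR adjusted p = 0.00232). SCD, which encodes the stearoyl-CoA desaturase that makes monounsaturated fatty acids, lies 8679 bases away on the same strand and was at 570, 586 and 579 CPM against 411, 409 and 395 CPM (log2 fold change -0.51, SE 0.047, edgeR adjusted p = 5.03e-07). Both genes separated their groups without overlap.

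HAGLROS lies opposite HAGLR in the HOXD cluster, and the antisense pair moved in opposite directions. HAGLROS was at 5.56, 5.59 and 4.67 CPM in control and at 3.30, 3.62 and 4.2 CPM in knockdown libraries (log2 fold change -0.51, SE 0.15, edgeR adjusted p = 0.0199), while HAGLR rose from 22.9, 27.5 and 24.2 CPM to 33.4, 35.3 and 32.1 CPM (log2 fold change 0.44, SE 0.082, edgeR adjusted p = 0.000821). The HAGLROS call was lost without control replicate 1, control replicate 2 or knockdown replicate 1, at an adjusted p of 0.0675, 0.0537 or 0.0842. Since the strand setting of the counting is not given in the sources used here and 37% of the exonic bases of HAGLROS are shared, reads of this pair cannot be told apart there. LINC00941 on chromosome 12 completed the 12 largest falls, with 9.03, 9.85 and 8.22 CPM against 5.93, 7.57 and 5.71 CPM (log2 fold change -0.50, SE 0.13, edgeR adjusted p = 0.00961).

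**Figure D4:**
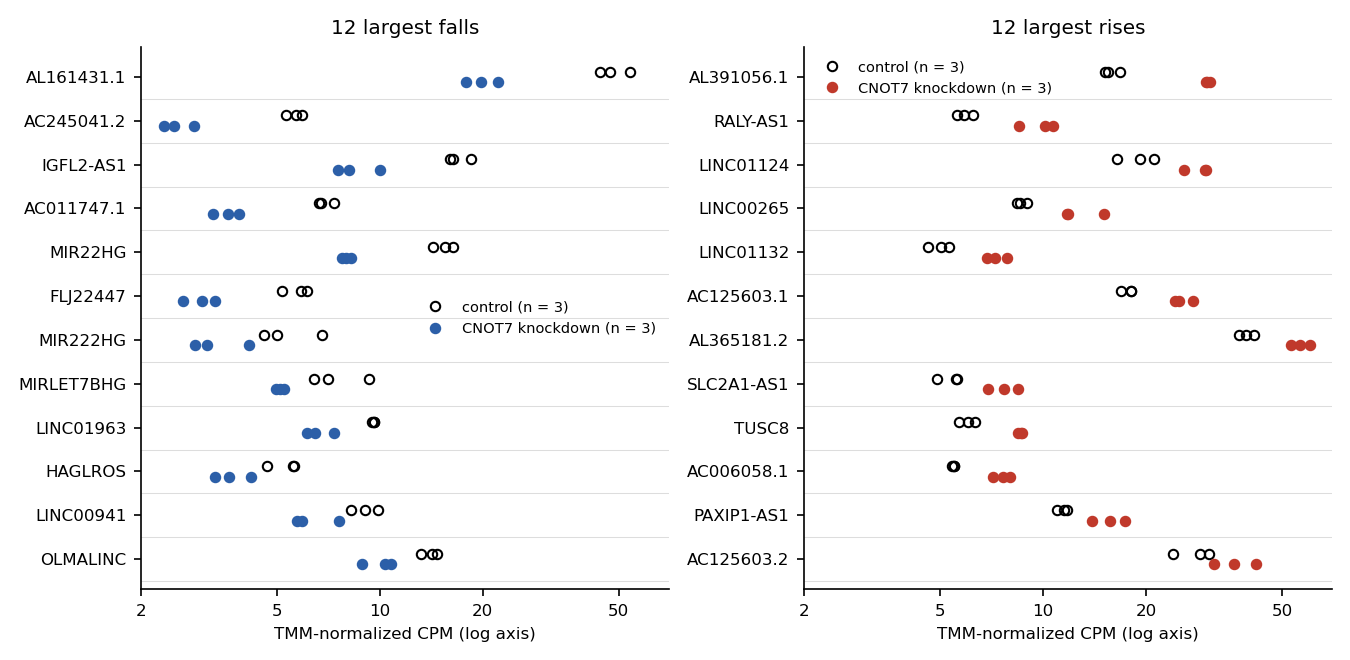
TMM-normalized CPM on a log axis for the 12 members with the largest falls (left) and the 12 with the largest rises (right); each open circle is a control library and each filled circle a CNOT7 knockdown library (n = 3 each). Groups without overlap were a condition of the choice, and the gap is widest for AL161431.1, with 44.1 to 53.9 against 17.8 to 22.1 CPM.

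AL391056.1 (ENSG00000227619, chromosome 9, 129575409 to 129584556, plus strand) showed the largest rise of the members. It went from 15.5, 15.2 and 16.8 CPM in control to 29.9, 30.1 and 30.8 CPM in knockdown libraries, 191% of control (log2 fold change 0.94, SE 0.079, edgeR adjusted p = 1.85e-07). No other tested gene lay within 10 kb. RALY-AS1, which overlaps the gene of the RNA-binding protein RALY on the opposite strand, went from 5.88, 5.59 and 6.22 CPM to 10.1, 10.7 and 8.49 CPM (log2 fold change 0.73, SE 0.12, edgeR adjusted p = 0.000303), while RALY itself was at 0.06 on the log2 scale (edgeR adjusted p = 0.614).

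LINC01124 starts 784 bases from SP5, a transcription factor gene induced by Wnt signalling, on the opposite strand. LINC01124 was at 21.1, 16.5 and 19.2 CPM in control and at 29.9, 25.8 and 29.8 CPM in knockdown libraries (log2 fold change 0.59, SE 0.096, edgeR adjusted p = 0.000199). SP5 rose as well, from 165, 143 and 157 CPM to 193, 168 and 213 CPM (log2 fold change 0.31, SE 0.076, edgeR adjusted p = 0.00643). The lincRNA AC007405.1 in the same neighbourhood, 8519 bases away and under the count floor, rose by 0.59 (edgeR adjusted p = 0.0291).

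AC125603.1 and AC125603.2 lie end to end on the plus strand of chromosome 12, 271 bases apart, and were among the 5 highest members per kilobase, at 48.3 and 31.8 CPM per kilobase in control. AC125603.1 rose from 18.1, 18.1 and 16.9 CPM to 25.0, 27.5 and 24.3 CPM (log2 fold change 0.53, SE 0.083, edgeR adjusted p = 0.000140). AC125603.2 rose from 30.7, 23.9 and 28.8 CPM to 36.3, 31.5 and 41.8 CPM (log2 fold change 0.39, SE 0.10, edgeR adjusted p = 0.00932). Knockdown replicate 3 was its highest library, and without it the adjusted p was 0.0533. Their protein-coding neighbour C12orf49 was at 0.04 on the log2 scale and was not called.

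LINC00265 was at 8.37, 8.99 and 8.54 CPM in control and at 11.7, 11.8 and 15.1 CPM in knockdown libraries (log2 fold change 0.58, SE 0.12, edgeR adjusted p = 0.00130). LINC01132 was at 4.59, 5.03 and 5.31 CPM against 7.84, 7.21 and 6.85 CPM (log2 fold change 0.55, SE 0.13, edgeR adjusted p = 0.00378). AL365181.2 rose from 41.3, 37.5 and 39.1 CPM to 56.3, 53.2 and 60.4 CPM (log2 fold change 0.53, SE 0.070, edgeR adjusted p = 3.06e-05). None of these groups overlapped.

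SLC2A1-AS1, antisense to the gene of the glucose transporter GLUT1, was at 5.6, 5.55 and 4.91 CPM in control and at 7.70, 6.92 and 8.43 CPM in knockdown libraries (log2 fold change 0.52, SE 0.13, edgeR adjusted p = 0.00576), whereas SLC2A1 was at 0.02. TUSC8 was at 6.30, 6.02 and 5.67 CPM against 8.44, 8.59 and 8.70 CPM (log2 fold change 0.52, SE 0.11, edgeR adjusted p = 0.00289). AC006058.1 was at 5.41, 5.50 and 5.51 CPM against 8.02, 7.65 and 7.15 CPM (log2 fold change 0.47, SE 0.12, edgeR adjusted p = 0.00715). PAXIP1-AS1, beside the gene of a DNA damage response adaptor, was at 11.5, 11.0 and 11.7 CPM against 13.9, 15.7 and 17.4 CPM (log2 fold change 0.46, SE 0.10, edgeR adjusted p = 0.00292), with PAXIP1 at -0.17 and not called. Among the abundant members, EBLN3P, a relic of a bornavirus nucleoprotein gene, rose from 131, 144 and 143 CPM to 159, 175 and 156 CPM (log2 fold change 0.23, SE 0.060, edgeR adjusted p = 0.00970), and without control replicate 1 its adjusted p was 0.0631.

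Many lincRNAs start beside a protein-coding gene on the other strand and can share its promoter region. In the 29 pairs whose starts lay within 1 kb, the lincRNA was called in 12 and the partner in 12. In 4 pairs both were called, and all 4 had the same direction. Thus 4 of the 12 called lincRNAs had a called partner, where 12 of all 29 partners were called. Of protein-coding genes over the floor, 29.8% were called. GAS6-DT (log2 fold change -0.46, edgeR adjusted p = 0.0440) fell with GAS6, the ligand of the TAM receptor kinases, which went from 87.4, 80.1 and 86.7 CPM to 62.4, 64.7 and 66.8 CPM. NUP50-DT (log2 fold change -0.32, edgeR adjusted p = 0.0323) fell with NUP50, a nuclear pore component, which went from 140, 148 and 142 CPM to 116, 116 and 109 CPM. MIR22HG fell with WDR81, which changed by -0.24 (edgeR adjusted p = 0.0166), and LINC01124 rose with SP5. The GAS6-DT call was kept in 1 of the 6 fits that each left out a library, with an adjusted p up to 0.182 in the others, and the NUP50-DT call in 3, with an adjusted p up to 0.132.

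In the other 8 pairs with a called lincRNA the coding partner was not called, as for RALY-AS1, SLC2A1-AS1 and PAXIP1-AS1. Across the 29 pairs Pearson's r between the log2 fold changes was 0.124 and Spearman's rho 0.263, a description across gene pairs that were measured in the same 6 libraries. With the nearest protein-coding gene within 10 kb, on either strand, 64 members had a tested neighbour, and 21 of these members were called. Both were called in 7 cases and the direction was shared in 5. Opposite signs were seen for AC060780.1, which rose while BRCA1 fell (log2 fold change 0.37 and -0.23, edgeR adjusted p = 0.00327 and 0.00839). AC060780.1 overlaps NBR1 as well, its head-to-head partner, which was not called (log2 fold change 0.02, edgeR adjusted p = 0.803). BRCA1 was taken as nearest from this tie. Opposite signs were also seen for AP003486.1, which rose while SNX19 fell (log2 fold change 0.39 and -0.24, edgeR adjusted p = 0.0233 and 0.00551). Outside this count, since ACOXL was taken as its nearest gene, MIR4435-2HG fell while BCL2L11 rose. BCL2L11, an apoptosis activator within the MIR4435-2HG span on the other strand, went from 38.2, 41.6 and 37.4 CPM to 47.9, 53.4 and 45.1 CPM (log2 fold change 0.32, SE 0.076, edgeR adjusted p = 0.00479).

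**Figure D5:**
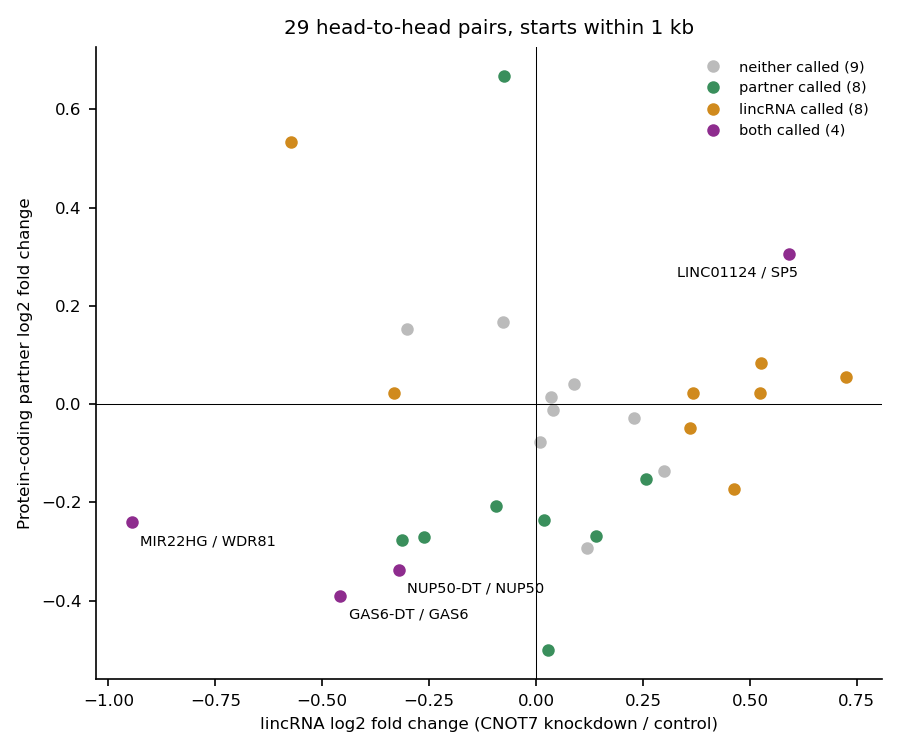
Log2 fold change of the protein-coding partner (vertical axis) against that of the lincRNA (horizontal axis) for the 29 head-to-head pairs, coloured by which gene edgeR called. The 4 pairs with both genes called lie in the lower left and upper right corners, and the cloud as a whole has a Pearson's r of 0.124.

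The members were also split by structure, and the difference between the subsets was not tested. In 40 members the longest transcript has a single exon, and 12 of these rose and 2 fell (median log2 fold change 0.17), or 30% and 5% against 13.3% and 11.9% of all tested genes. Of the 84 spliced members 13 rose and 18 fell (median 0.01), or 15.5% and 21.4%. With the abundance trend removed the single-exon counts were 5 and 3 and the spliced counts 12 and 18, and the single-exon median was 0.12. Without control replicate 1, control replicate 3, knockdown replicate 1 or knockdown replicate 2, the number of risen single-exon members was 5, 6, 6 or 8. Clone-based names, given to genes known by position alone, belonged to 48 members, of which 11 rose and 4 fell, and 33 had LINC names, of which 6 rose and 4 fell. Among the 80 members with no exonic base shared with another gene on either strand, 19 rose and 10 fell, and among the 44 with shared bases 6 rose and 10 fell.

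Across the 124 members the log2 fold change had a Spearman's rho of -0.039 with the control level, -0.062 with gene length, -0.002 with GC content, 0.005 with the density of ATTTA letters and -0.192 with exon number. These are descriptions across genes that share the same libraries. Just inside the count threshold that chose the members were LINC01569, LINC00630 and AL355338.1, with lowest control counts of 104, 107 and 108 and log2 fold changes of 0.04, 0.20 and -0.08. Just outside were AC107068.1, AC078846.1 and LINC00239, with lowest control counts of 99, 99 and 96 and log2 fold changes of 0.18, 0.10 and 0.97. LINC00239 had raw counts of 109, 117 and 96 in control and 242, 237 and 252 in knockdown libraries.

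The rest of the 5 highest members per kilobase were CR392039.3 and MALAT1, at 81.5 and 26.0 CPM per kilobase in control. CR392039.3 has 227 exonic bases and was at 19.7, 19.3 and 16.5 CPM in control and at 18.7, 18.7 and 17.6 CPM in knockdown libraries. Its groups overlapped, and its log2 fold change of -0.01 (edgeR adjusted p = 0.939) took the other sign, at 0.03, with upper-quartile factors.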

How the data were processed

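Total RNA was extracted with TRIzol, and libraries were made with the NEBNext Ultra RNA kit. The submitters' processing notes name CASAVA 1.8, fastp, HISAT2 2.0.5, featureCounts 1.5.0-p3, DESeq2 1.20.0 and GRCh38. The authors deposited raw counts per gene for 6 libraries, without normalization, beside a gene length. How RNA was selected and whether counting used strand are not given in the sources used here. All 58735 gene positions matched GENCODE 29. MicroRNA positions were not searched for the 6 members on chromosome 8. Columns from other samples left unused numbered 0.

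The test was run in edgeR 4.0.16 under R 4.3.3, with filterByExpr, TMM factors, glmQLFit and glmQLFTest between the groups of 3, with Benjamini-Hochberg adjustment over 17574 genes and a threshold of 0.05. The SE is the absolute log2 fold change over the square root of F. Levels are TMM-normalized CPM. Replicate libraries differed by more than sampling noise, so none was counted as a copy. The depth of each library, 23788451 counts or more, sets the precision that each SE shows, together with n = 3. The procedure was tested on simulated data.

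Alternatives were DESeq2 1.42.0, RLE or upper-quartile factors, 2 other low-count filters, a replicate block, removal of the abundance trend (cyclic loess, limma 3.58.1), each library left out, other member rules and other call thresholds. Restrictions to members without shared exonic bases and to members outside chromosome 13 were chosen after seeing the data. Named genes were the members of the lists, the 12 largest rises and 12 largest falls with groups that do not overlap, the 5 highest per kilobase and the 3 nearest the floor on each side. EBLN3P, MUC20-OT1, AC016831.6, GAS6-DT, NUP50-DT, AC060780.1, AP003486.1 and some of the neighbouring genes were named after their values were seen. The members and lists were chosen with earlier results of these data known.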

Additional observations from a re-analysis of the deposited data

How the results depend on the processing

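The members' counts of 25 higher and 20 lower and their median log2 fold change of 0.04 moved with the member rule and the call threshold. A floor on the mean of all 6 libraries kept 168 genes, of which 44 were higher, with a median of 0.14. A floor in each knockdown library kept 164, with 50 higher and a median of 0.19, since a floor on the knockdown side admits genes that are high there. The knockdown libraries are also deeper, which bears on a floor in raw counts. A floor of 50 counts gave 51 higher and a floor of 200 gave 13 higher and 13 lower, where they kept 230 and 61 genes. Asking for a log2 change of at least 1 in size left 0 higher and 2 lower, at the same adjusted p, where an unadjusted p under 0.05 gave 35 and 25 and DESeq2 with no minimum 20 and 18. Without shared exonic bases, a restriction chosen after seeing the data, 10 of 80 members were lower. Leaving out 1 library gave 15 to 23 higher and 13 to 21 lower, with 15 without control replicate 1 and 13 without knockdown replicate 1. The same-number libraries of the groups had correlations of 0.023, 0.15 and -0.015, and libraries of different number had -0.15 to 0.13. These correlations run over all tested genes and cannot exclude a batch shared by number. The replicate block gave 32 higher and 23 lower. Of the 45 called members, 25 stayed called in all 13 alternative fits, 14 higher and 11 lower, and 37 with the abundance trend removed. Among the named members, signs turned only for 3 uncalled genes near 0. NEAT1 went to 0.031 with upper-quartile factors and 0.053 without the trend, and from -0.054 to 0.048 with libraries left out. CR392039.3 went to 0.028 with upper-quartile factors and from -0.092 to 0.034 with libraries left out. LINC01569 went to -0.073 without the trend and from -0.017 to 0.088 with libraries left out. With n = 3 the median SE of the members was 0.11, so a change of that size could not be told from 0 at this depth for most of them.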

Other observations

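Many lincRNA genes lay under the control floor and over it in the knockdown libraries. The floor is on raw counts, and each knockdown library was deeper than any control library, which alone can carry a gene over it. A floor of 100 counts in each knockdown library added 46 lincRNA genes that the control floor had left out. Of these, edgeR called 25 higher and 0 lower. Some lay near or under 0, as LINC01588 at -0.04 and EPB41L4A-DT at -0.16 on the log2 scale. Since the 46 were picked for being high in the knockdown libraries, their direction is a description and no test of one. The 3 with the largest log2 fold changes are given here. LINC01844 had raw counts of 52, 28 and 41 in control and of 135, 128 and 123 in knockdown libraries. AC007493.1 had 51, 65 and 70 against 200, 154 and 177. AL354861.3 had 94, 88 and 99 against 252, 204 and 202. In all 3 genes each knockdown library held more reads than any control library. These genes were picked as the largest changes among the 46, so this separation largely follows from the choice and is no test. The raw counts are also not corrected for the greater depth of the knockdown libraries. MIR34AHG, the host of the p53-induced miR-34a, was named after its value was seen. It was also among the 46 and had a log2 fold change of 0.37 that was not called by edgeR (adjusted p = 0.0632).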
